A study of Mus musculus with 16 samples.

Results

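The peroxiredoxins, glutaredoxin and the enzymes of superoxide defence were followed across 4 lines of CT26 cells, a mouse colon carcinoma line from the BALB/c strain, on 16 Affymetrix mouse genome arrays. Of the 10 genes chosen by symbol (Prdx1 to Prdx6, Glrx, Sod1, Sod2 and Cat), 7 had probe sets of their own, 20 in all, among 45037 probe sets tested and 18193 genes with a probe set of their own. Prdx1 shares its 5 probe sets with Gm21399, annotated as a pseudogene, so these signals are given as shared and counted for neither. Prdx5 and Prdx6 were not analysed here. No filter on dim signals was applied, and 15 of the 20 probe sets had a mean log2 signal of 6 or more over the arrays.

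The shSep15 cells carried a hairpin against the 15kDa selenoprotein (Sep15, now Selenof). The shTR1 cells carried a hairpin against thioredoxin reductase 1 (TR1, gene Txnrd1). The shTR1/shSep15 cells carried both. The control cells carried the empty pU6-m3 vector. All 4 lines were stably transfected and selected with hygromycin, and each gave 4 mRNA samples. The study's methods speak of several clones, and which of them gave the RNA on the arrays is not given in the sources used here. The p-values refer to the spread among samples of a line, which may be technical. The question was which genes differ when either selenoprotein or both are targeted.

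Peroxiredoxins are thiol peroxidases that reduce hydrogen peroxide with a reactive cysteine. In the typical members the oxidised cysteine forms a disulfide that thioredoxin reduces, and thioredoxin is kept reduced by thioredoxin reductase and NADPH, so that the protein targeted in the shTR1 cells stands upstream of this cycle in the cytosol. Glutaredoxin runs the parallel route on glutathione. Superoxide dismutases turn superoxide into hydrogen peroxide, which peroxiredoxins, glutathione peroxidases and catalase then remove. Prdx4 works in the endoplasmic reticulum, the compartment in which Sep15 resides.

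The sequences shown first are the hairpin targets, since each line is defined by them, both as given in the labels, 5′ to 3′. The Sep15 sequence has 19 bases and comes from Selenof (chromosome 3), and the TR1 sequence has 22 bases and comes from Txnrd1 (chromosome 10).
Sep15 hairpin: acagaagagttccatttaa
TR1 hairpin: atcgctctgacaagcttattag

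Nrf2, the transcription factor that binds antioxidant response elements, is known to induce several of these genes. The core of the element, TGACNNNGC on either strand, was searched in windows of 300 bases (250 before to 50 after the start) from RefSeq, GRCm38.p6. It occurred in 12.4% of 32851 windows, and among the 9 member genes with a window it occurred in 2, Prdx1 and Sod1. The sequences below show these matches beside those of Srxn1, Gclm and Txnrd1, taken as examples from the lists of partner genes used further on. How many genes of those lists lack the core is not given here, so that the examples are no measure of the lists. Each sequence is on the strand of its gene, 5′ to 3′, with the 9 bases that match the core in capitals. All 5 match on the opposite strand, so that the core reads as its reverse complement.
Prdx1, chr4:116685457-116685483: agggaaagcGCTGAGTCAtcccccgta
Sod1, chr16:90220697-90220723: ccaaggtggGCGTGGTCAgactcaggc
Srxn1, chr2:152105543-152105569: cagtgggcaGCTAGGTCAgagtgagac
Gclm, chr3:122245414-122245440: ctcccgggcGCACCGTCAactctcacg
Txnrd1, chr10:82859105-82859131: tggatttttGCTTTGTCAttctgacac

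The match ends 125 bases before the start in Prdx1 and 48 bases before it in Sod1. A match is a stretch of letters and not a measured binding site, and no match in a window of this length bears on the rest of a gene.

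At the brightest Selenof probe set, the log2 signals were 8.02, 8.06, 8.29 and 8.15 in shSep15 cells and 7.86, 7.34, 7.77 and 7.66 in shTR1/shSep15 cells, against 11.56, 10.78, 11.57 and 11.42 in control cells. Every array with the Sep15 hairpin lay below every control array. At the brightest Txnrd1 probe set, the signals were 7.60, 7.18, 7.73 and 7.91 in shTR1/shSep15 cells, against 10.39, 9.45, 9.90 and 10.10 in control cells. The arrays labelled shTR1 gave 7.85, 10.57, 7.89 and 9.71, so that replicate 4 fell inside the control range and replicate 2 exceeded it. Statements on shTR1 cells therefore refer to the arrays so labelled. Of 10 epithelial marker genes, 7 were below 6 on every array, with Cdh1 between 2.31 and 2.80, although the line is labelled a carcinoma. The highest signal among the 10 was 8.90. Of 9 fibroblast and mesenchymal marker genes 2 were below 6 on every array, while Vim lay between 12.28 and 13.28. Of 8 leukocyte marker genes 4 were below 6 on every array, while Cd14 reached 9.31. Cd14 fell in shSep15 cells against control and rose in shTR1/shSep15 against shSep15 cells, and its part in the results was not tested. In RNA from whole cultures, fewer cells of a type and less RNA per cell cannot be told apart.

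Control replicate 2 stood apart from the other control arrays, and this touches most of the members. It was the lowest control array at 6 of the 7 brightest member probe sets (85.7%), against 46.7% of the 13598 probe sets with a mean of 6 or more. Its median log2 difference from the mean of the other 3 control arrays was -1.21 at these 7 probe sets, against -0.23 at the 13598. The mean of its Gapdh control probe sets was 12.14, against 13.11 to 13.28 on the other control arrays. The mean of 10 interferon response genes was 8.53 on this array, against 5.03 to 5.36 on the others. The interferon list also varied within the lines, from 6.08 to 10.15 in shSep15 cells, 5.42 to 10.14 in shTR1 cells and 4.45 to 5.19 in shTR1/shSep15 cells. The part of any of these in the results was not tested, and the members' differences from control are given with and without this array where it moves them.

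**Figure D1:**
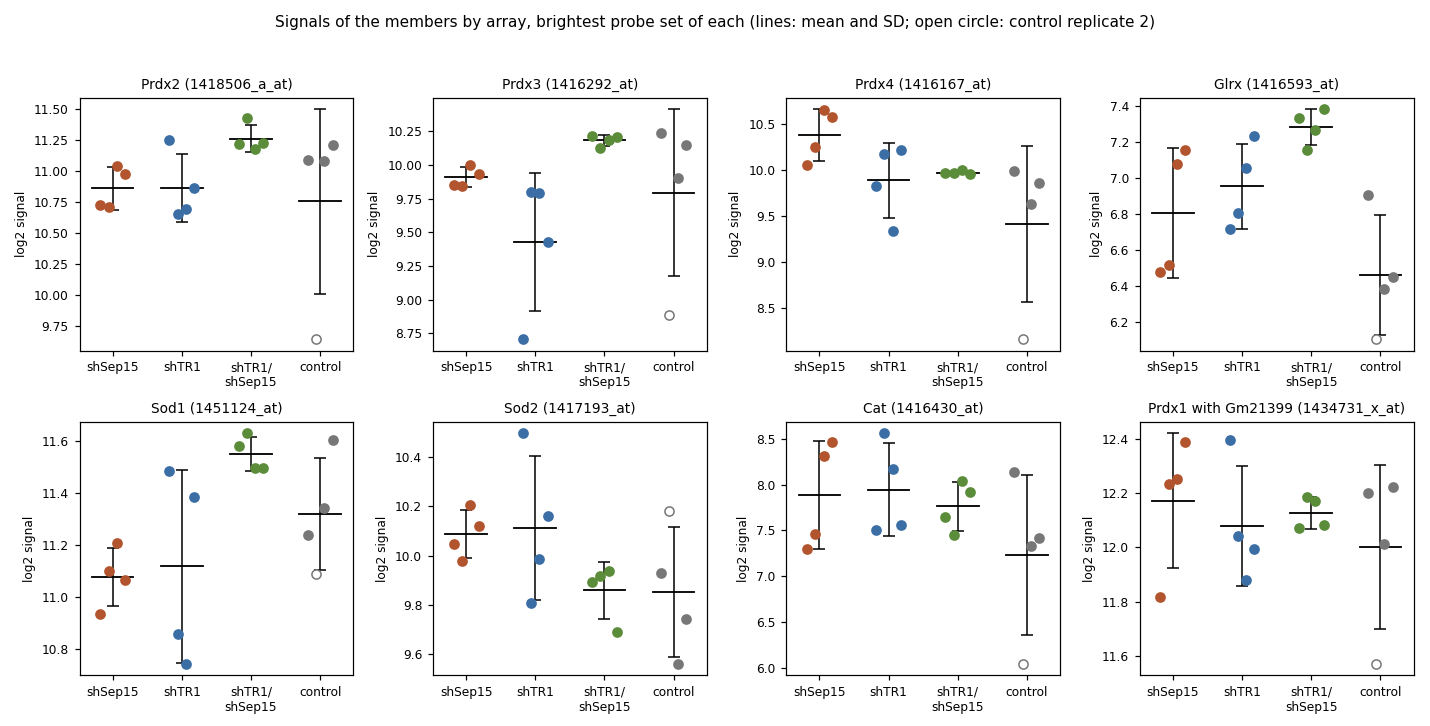
Log2 signal (vertical axis) at the brightest probe set of each member on each of the 16 arrays, by line, with the mean and SD as black lines and control replicate 2 as an open circle. Glrx shows all 4 shTR1/shSep15 arrays (7.16 to 7.38) above all 4 control arrays (6.10 to 6.91), and the open circle is the lowest control array in every panel except that of Sod2.

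Over all probe sets, limma with Benjamini-Hochberg adjustment called 885 in shSep15 against control (1.97% of those tested), 81 in shTR1 against control (0.18%) and 11 in shTR1/shSep15 against control (0.0244%). It called 1196 in shTR1/shSep15 against shSep15 (2.66%), 33 in shTR1/shSep15 against shTR1 (0.0733%), 1282 for non-additivity (2.85%) and 1051 for any difference among the lines (2.33%). Non-additivity is the shTR1/shSep15 difference from control minus the sum of the shSep15 and shTR1 differences. Of the 20 member probe sets, 0 were called in 6 of these 7 comparisons and 1, the third brightest probe set of Sod1, for non-additivity. At an unadjusted p under 0.05, members counted 8 of 20 in shSep15 against control (12.7% of all probe sets), 6 in shTR1 against control (11.8%) and 2 in shTR1/shSep15 against control (8.14%). They counted 6 in shTR1/shSep15 against shSep15 (13.3%), 4 in shTR1/shSep15 against shTR1 (10.4%), 8 for non-additivity (16%) and 7 for any difference among the lines (14.6%). Probe sets of 1 gene share its transcripts and are not separate results.

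Complete separation of the arrays of a pair of lines was counted as well. The lowest shSep15 array exceeded the highest control array at 2 of the 20 probe sets, both of Prdx4 (3.95% of all probe sets), and the reverse held at 0 (2.48%). The shTR1 arrays lay above all control arrays at 0 (2.5%) and below at 0 (1.71%). The shTR1/shSep15 arrays lay above all control arrays at 3, both of Glrx and 1 of Prdx4 (3.12%), and below at 0 (1.8%). Against the shTR1 arrays they lay above at 3, of Prdx2, Prdx3 and Sod1 (3.41%), and below at 2, of Sod1 and Cat (4.66%). The separated probe sets come from few genes and are mostly bright, while the shares cover dim probe sets too, so that the counts are given as a description.

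The brightest probe sets of the 7 members lay above control in all 7 genes in shTR1/shSep15 cells, in 6 in shSep15 cells and in 5 in shTR1 cells. Over all probe sets tested, 47.9%, 44.2% and 43.1% lay above control in these lines, and over those with a mean of 6 or more 61.5%, 60.4% and 66.2%. The median member difference was 0.51 in shTR1/shSep15 cells, 0.23 in shSep15 cells and 0.26 in shTR1 cells, against medians of 0.10, 0.10 and 0.14 over probe sets with a mean of 6 or more and of -0.01, -0.03 and -0.04 over all. Without control replicate 2 the member medians were 0.14, 0.23 and 0.06, against 0.05, 0.06 and 0.09 over probe sets with a mean of 6 or more, so that the one in shTR1 cells lay below that of the bright probe sets. Then 7, 4 and 4 of the 7 genes lay above control, as did 57.7%, 56.4% and 60.6% of probe sets with a mean of 6 or more. With that array left out, the member medians thus fell from 0.51 to 0.14 in shTR1/shSep15 cells and from 0.26 to 0.06 in shTR1 cells.

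**Figure D2:**
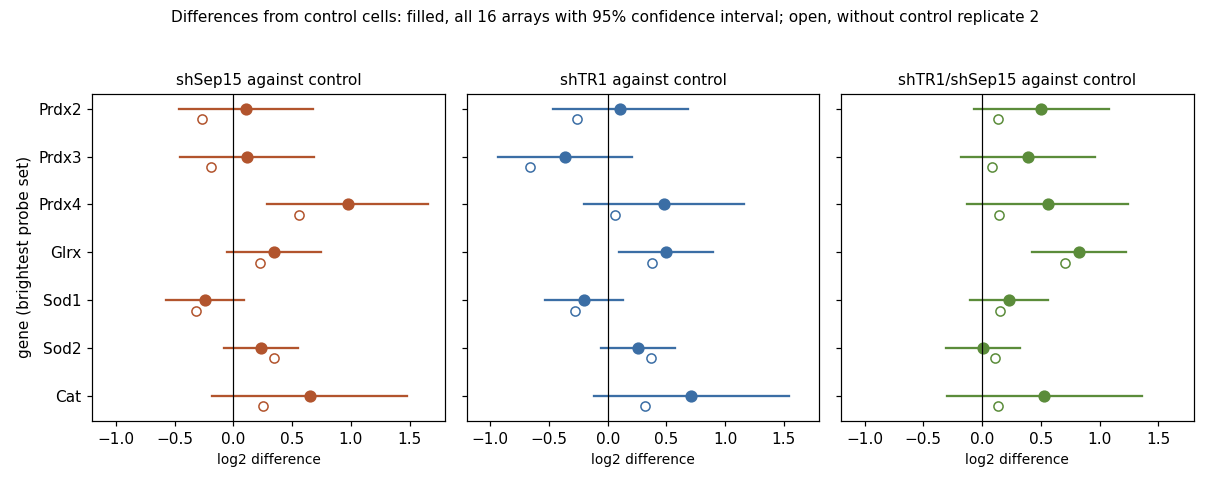
Log2 difference from control cells (horizontal axis) at the brightest probe set of each member, in shSep15, shTR1 and shTR1/shSep15 cells, as filled points with the 95% confidence interval of the fit on 16 arrays and open points for the fit without control replicate 2. Only Prdx4 in shSep15 cells and Glrx in shTR1 and shTR1/shSep15 cells have intervals that leave out 0, and the open points lie to the left of the filled ones in every gene except Sod2.

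Prdx2, the abundant cytosolic peroxiredoxin of red cells that most tissues also express (chromosome 8, 84969622 to 84974811, GRCm38.p6), had log2 signals of 11.22, 11.42, 11.18 and 11.23 in shTR1/shSep15 cells at its brighter probe set. The signals were 10.72, 10.71, 11.04 and 10.98 in shSep15 cells and 11.25, 10.65, 10.69 and 10.86 in shTR1 cells, against 11.09, 9.65, 11.08 and 11.21 in control cells. All 4 shTR1/shSep15 arrays lay above all 4 shSep15 arrays, while the control arrays other than replicate 2, at 11.08 to 11.21, lay above the shSep15 arrays and reached into the range of the shTR1/shSep15 arrays. The difference between shTR1/shSep15 and shSep15 cells was 0.40 ± 0.27 (SE, n = 4 arrays each, limma adjusted p = 0.63), with a 95% interval of -0.17 to 0.97. The same difference had an adjusted p of 0.101 in the fit without control replicate 2. The dimmer probe set of Prdx2 had signals of 4.55 to 4.88 in shTR1/shSep15 cells, against 4.10 to 4.32 in shSep15 cells, 3.97 to 4.39 in shTR1 cells and 4.25 to 4.88 in control cells. Here the shTR1/shSep15 arrays lay above every array of either single-hairpin line, and the non-additivity was 0.75 ± 0.19 (SE, adjusted p = 0.053). It passed the threshold without control replicate 2 (0.80, adjusted p = 0.035). At the brighter probe set the non-additivity was 0.29 ± 0.38 (SE, adjusted p = 0.73), and 0.66 without control replicate 2 (adjusted p = 0.060). The probe sets differed in sign against control on all arrays, at 0.11 in shSep15 and 0.11 in shTR1 cells at the brighter, beside -0.29 and -0.30 at the dimmer, and they correlated at 0.47 over the 16 arrays.

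Prdx3 is the mitochondrial peroxiredoxin, served by the mitochondrial pair Txn2 and Txnrd2 (chromosome 19, 60864066 to 60874538). Its single probe set had signals of 10.22, 10.12, 10.19 and 10.21 in shTR1/shSep15 cells. The signals were 9.85, 9.84, 10.002 and 9.93 in shSep15 cells and 8.71, 9.80, 9.79 and 9.43 in shTR1 cells, against 10.24, 8.89, 9.90 and 10.15 in control cells. The shTR1/shSep15 arrays lay close together and above every array of both single-hairpin lines, and inside the range of the control arrays. Against shTR1 cells the difference was 0.75 ± 0.27 (SE, adjusted p = 0.32, 95% interval 0.18 to 1.32), and without control replicate 2 the adjusted p was 0.089. Against control, shTR1 cells gave -0.36 ± 0.27 (SE, adjusted p = 0.57), and -0.67 ± 0.20 without control replicate 2 (adjusted p = 0.21). All 4 shTR1 arrays lay below the 3 other control arrays, as at 3.13% of all probe sets.

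Prdx4, the peroxiredoxin of the endoplasmic reticulum that passes oxidising equivalents to protein disulfide isomerases (chromosome X, 155323918 to 155342272), was the member with the largest difference in shSep15 cells among the 7 brightest probe sets. At its brightest probe set the signals were 10.05, 10.25, 10.65 and 10.58 in shSep15 cells, against 9.99, 8.16, 9.63 and 9.86 in control cells. The shTR1 cells had 9.83, 10.17, 9.34 and 10.21, and the shTR1/shSep15 cells had 9.96, 9.97, 9.998 and 9.95. Each shSep15 array thus lay above each control array and each shTR1/shSep15 array. The difference from control was 0.97 ± 0.32 (SE, n = 4 each, adjusted p = 0.17), a 1.96-fold higher signal with a 95% interval of 0.29 to 1.66 on the log2 scale. An exact two-sided permutation test gave p = 0.0286, the smallest that 4 arrays against 4 allow.

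Prdx4 was measured by 3 further probe sets, of which the second brightest gave 1.18 ± 0.38 (SE, adjusted p = 0.16) and the third gave 0.77 ± 0.23 (SE, adjusted p = 0.12) in shSep15 cells against control. The 3 bright probe sets followed each other over the 16 arrays, with correlations of 0.92 to 0.96. The dimmest gave 0.40 ± 0.18 (SE, adjusted p = 0.35). The shSep15 arrays overlapped the control arrays at the second brightest and at the dimmest (exact permutation test, p = 0.0571 and 0.0857), and did not at the third. All 4 differences had the same sign and none was called. With control replicate 2 left out, the differences at the 3 bright probe sets were 0.56, 0.73 and 0.46, with adjusted p of 0.19, 0.22 and 0.073. At the third probe set the shTR1/shSep15 arrays, from 6.54 to 6.76, lay above the control arrays as well, which reached 6.52. The shTR1/shSep15 cells differed from shSep15 cells by -0.41 ± 0.32 at the brightest (SE, adjusted p = 0.71).

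Prdx1 encodes the major cytosolic peroxiredoxin (chromosome 4, 116685599 to 116700000), and its probe sets also carry Gm21399 (chromosome 8, 129252925 to 129254339). At the brightest of these the signals were 11.82, 12.24, 12.25 and 12.39 in shSep15 cells, 12.39, 12.04, 11.88 and 12.00 in shTR1 cells and 12.07, 12.19, 12.17 and 12.08 in shTR1/shSep15 cells, against 12.20, 11.57, 12.01 and 12.22 in control cells. The lines overlapped throughout. Over the 5 shared probe sets the differences from control ran from 0.10 to 0.33 in shSep15 cells, 0.08 to 0.20 in shTR1 cells and 0.13 to 0.29 in shTR1/shSep15 cells, with 0 of 5 called in any comparison. In the fit without control replicate 2 they ran from -0.07 to 0.16, -0.07 to -0.01 and -0.02 to 0.07. At the brightest of the 5, the 95% interval of the difference between shTR1 and control cells was -0.26 to 0.41.

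Glrx, the cytosolic glutaredoxin that removes glutathione from protein thiols (chromosome 13, 75839885 to 75850151), had the smallest p for any difference among the lines of the 7 brightest probe sets. At the brighter probe set the signals were 7.33, 7.16, 7.27 and 7.38 in shTR1/shSep15 cells, against 6.91, 6.10, 6.38 and 6.45 in control cells. The shTR1 cells had 6.72, 6.81, 7.05 and 7.24, and the shSep15 cells had 6.48, 6.52, 7.08 and 7.16. The means ordered as 7.29 ± 0.10 in shTR1/shSep15 cells, 6.95 ± 0.24 in shTR1 cells, 6.81 ± 0.36 in shSep15 cells and 6.46 ± 0.33 in control cells (SD, n = 4 each), and the arrays of neighbouring lines in this order overlapped.

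The Glrx difference between shTR1/shSep15 and control cells was 0.82 ± 0.19 (SE, 1.77-fold, 95% interval 0.43 to 1.22), with an unadjusted p of 0.00053 in limma and an adjusted p of 0.25. All 4 shTR1/shSep15 arrays lay above all 4 control arrays, as did 3.12% of all probe sets and 7.35% of those with a mean of 6 or more. The second probe set gave 0.83 ± 0.24 (SE, adjusted p = 0.38) from signals of 7.001 to 7.24 in shTR1/shSep15 cells, against 5.82 to 6.81 in control cells, again without overlap. At the brighter probe set the difference was 0.71 ± 0.19 without control replicate 2 (SE, adjusted p = 0.42). The differences of shTR1 and shSep15 cells from control were 0.49 ± 0.19 (SE, adjusted p = 0.32) and 0.35 ± 0.19 (SE, adjusted p = 0.49). Their sum lay close to the difference in shTR1/shSep15 cells, and the non-additivity was -0.02 ± 0.26 (SE, 95% interval -0.58 to 0.55, adjusted p = 0.98).

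Over 8053 genes whose brightest probe set had a mean of 6 or more, the patterns most like that of Glrx across the 16 arrays were those of Hyal2 (Pearson r = 0.85), Aldh2 (r = 0.85) and Trp53i13 (r = 0.84). Hyal2 encodes a hyaluronidase, Aldh2 the mitochondrial aldehyde dehydrogenase and Trp53i13 a product induced by p53. Aldh2 had means of 10.30 in shTR1/shSep15 cells, 10.23 in shTR1 cells and 9.78 in shSep15 cells, against 9.14 in control cells. These are the highest of 8053 correlations across arrays that share their lines, and are given as a description.

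Sod1, the copper and zinc superoxide dismutase of the cytosol (chromosome 16, 90220762 to 90226333), had probe sets that disagreed. At the brightest the signals were 11.58, 11.63, 11.50 and 11.50 in shTR1/shSep15 cells, against 10.94, 11.10, 11.21 and 11.07 in shSep15 cells and 11.48, 10.86, 10.75 and 11.39 in shTR1 cells. The control cells had 11.24, 11.09, 11.34 and 11.60. The shTR1/shSep15 arrays lay above every array of both single-hairpin lines, as at Prdx3, and overlapped the control arrays. Against shSep15 cells the difference was 0.47 ± 0.16 (SE, 1.39-fold, 95% interval 0.14 to 0.80, adjusted p = 0.15), and against shTR1 cells 0.43 ± 0.16 (SE, adjusted p = 0.33). With only the arrays of shTR1/shSep15 and shSep15 cells in the fit, the difference between these lines passed the threshold (adjusted p = 0.012). That fit leaves out the shTR1 and control arrays, whose SD was 0.37 and 0.22, against 0.07 in shTR1/shSep15 and 0.11 in shSep15 cells. The share of all probe sets called in it is not given here, so that the pass is not particular to Sod1. The non-additivity was 0.67 ± 0.22 (SE, unadjusted p = 0.0081, adjusted p = 0.13). The second brightest probe set gave 0.33 ± 0.12 against shSep15 cells (SE, adjusted p = 0.20), in the same direction.

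The third Sod1 probe set ran the opposite way. Its signals were 5.68, 4.87, 5.78 and 5.78 in shTR1/shSep15 cells, 6.74, 7.62, 6.15 and 6.52 in shSep15 cells and 6.57, 6.80, 7.16 and 6.77 in shTR1 cells, against 6.002, 6.90, 5.86 and 4.76 in control cells. The shTR1/shSep15 arrays were lower than every array of both single-hairpin lines, and the control arrays spread from 4.76 to 6.90. The non-additivity was -2.17 ± 0.55 (SE, 95% interval -3.34 to -1.01), and limma gave an adjusted p of 0.047, the 1 call among the members, where 2.85% of all probe sets were called. Over the 16 arrays its correlation with the brightest was -0.77. The call was kept without control replicate 2, where non-additivity was -2.51 (adjusted p = 0.0088), and without shTR1 replicate 1 (adjusted p = 0.046). It was lost without any 1 of the other 14 arrays, at adjusted p of 0.053 to 0.104. The fourth probe set had signals of 4.53 to 5.78 in shTR1/shSep15 cells, 4.47 to 5.40 in shSep15 cells and 4.09 to 5.27 in shTR1 cells, against 4.94 to 6.95 in control cells, and the fifth did not exceed 2.68. Which transcripts each probe set detects was not examined, and a change of Sod1 cannot be stated from these 5 as a whole.

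**Figure D3:**
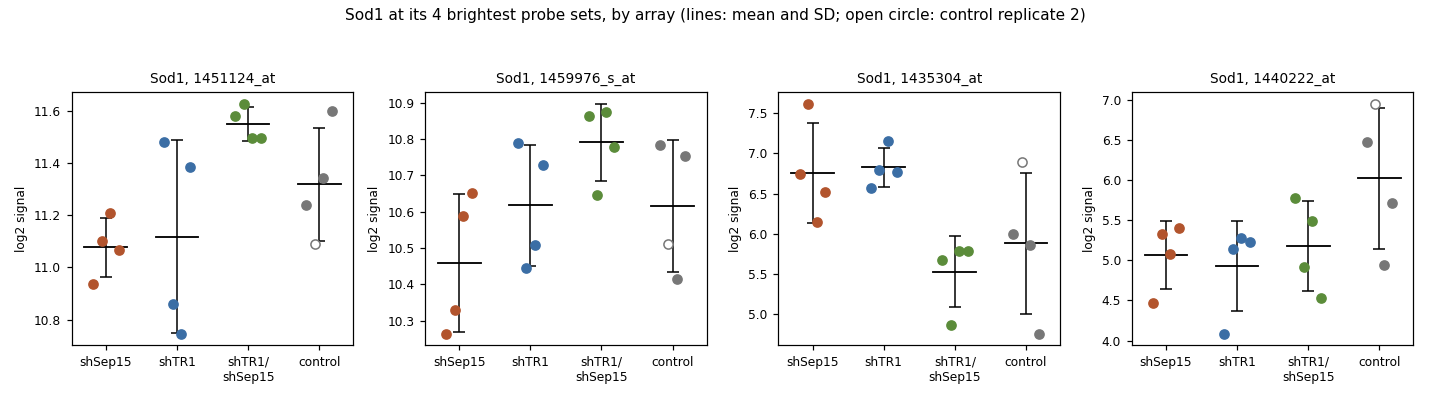
Log2 signal (vertical axis) of Sod1 on each array at its 4 brightest probe sets, by line, brightest first, with mean and SD as black lines and control replicate 2 as an open circle. The shTR1/shSep15 arrays lie above both single-hairpin lines at the brightest (11.50 to 11.63) and below both at the third (4.87 to 5.78).

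Sod2, the manganese superoxide dismutase of mitochondria and a gene that inflammatory signals are known to induce (chromosome 17, 13007839 to 13018119), had signals of 10.05, 9.98, 10.20 and 10.12 in shSep15 cells at its brightest probe set. The shTR1 cells had 10.50, 9.81, 9.99 and 10.16 and the shTR1/shSep15 cells 9.89, 9.92, 9.94 and 9.69, against 9.93, 10.18, 9.56 and 9.74 in control cells. The highest shTR1/shSep15 array was below the lowest shSep15 array, while both single-hairpin lines overlapped the control arrays. The difference from control was 0.23 ± 0.15 in shSep15 cells (SE, adjusted p = 0.57), 0.26 ± 0.15 in shTR1 cells (SE, adjusted p = 0.49) and 0.005 ± 0.15 in shTR1/shSep15 cells (SE, adjusted p = 0.998, 95% interval -0.31 to 0.32). The non-additivity was -0.49 ± 0.21 (SE, adjusted p = 0.27). Control replicate 2 was the highest control array here, unlike at the other 6 members, and without it the differences were 0.34 in shSep15 cells and 0.37 in shTR1 cells.

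At the third Sod2 probe set the shTR1/shSep15 arrays had 6.49, 5.47, 6.50 and 6.05, against 7.29, 6.70, 7.41 and 7.60 on the shSep15 arrays, again without overlap. The difference was -1.12 ± 0.35 (SE, 95% interval -1.86 to -0.38, adjusted p = 0.12), and it passed the threshold with only these 8 arrays in the fit (adjusted p = 0.029). The share of all probe sets called in the fit on these 8 arrays is not given here. At the second, whose correlation with the brightest was 0.93, the same difference was -0.25 ± 0.17 (SE, adjusted p = 0.64). At the dimmest Sod2 probe set the same difference was 0.07 ± 0.16 (SE, adjusted p = 0.94), so that the 4 probe sets did not all share a sign. The interferon list was lower in the same comparison, with a median difference of -3.69 over its 10 genes and 3 called (Usp18, Irf9 and Gbp2). Its part in the Sod2 values was not tested.

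Cat, the peroxisomal catalase (chromosome 2, 103453904 to 103485153), had signals of 7.30, 7.46, 8.31 and 8.46 in shSep15 cells and 7.50, 8.56, 8.17 and 7.56 in shTR1 cells at its brighter probe set. The shTR1/shSep15 cells had 7.65, 7.45, 8.04 and 7.92, against 8.14, 6.05, 7.33 and 7.42 in control cells. The 4 lines overlapped, and 1 control array, replicate 2, lay more than 1 unit below the rest. The differences from control were 0.65 ± 0.39 in shSep15 cells (SE, adjusted p = 0.55), 0.71 ± 0.39 in shTR1 cells (SE, adjusted p = 0.47) and 0.53 ± 0.39 in shTR1/shSep15 cells (SE, adjusted p = 0.79). These were 0.26, 0.32 and 0.14 without control replicate 2. At the dimmer, which followed the brighter probe set with a correlation of 0.92, shTR1/shSep15 arrays had 7.43, 6.75, 7.59 and 7.52, all below the shTR1 arrays with 7.61, 8.44, 8.08 and 7.69, at a difference of -0.63 ± 0.35 (SE, adjusted p = 0.56).

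The comparison of shTR1/shSep15 with shSep15 cells had the most separated members. At 4 of the 20 probe sets (Prdx2 at both, Prdx3 and Sod1) all 4 shTR1/shSep15 arrays lay above all 4 shSep15 arrays, as at 7.11% of all probe sets and 15.4% of those with a mean of 6 or more. At 5 (Prdx4 and Sod2 at 2 each, and Sod1) they lay below, as at 7.52% of all and 14.5% of those with a mean of 6 or more. These counts include dim probe sets, the dimmer of Prdx2 (mean 4.4) and the dimmest of Prdx4 (mean 3.04). The shares of probe sets with a mean of 6 or more are therefore not a like comparison. None of the 20 passed the adjusted threshold in this comparison on all arrays. With weights that count outlying arrays for less, chosen after seeing the data, 5 of the 20 were called in this comparison. The share of all probe sets called under these weights is not given here, so that this count is no measure of the members as a group.

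The other genes of these pathways were taken from lists grouped by their roles. These lists were chosen with earlier results of these data known, so that their counts are given as a description. Of 16 thioredoxin-side partners measured, limma called 0 in each line against control. In shTR1/shSep15 against shSep15 cells it called 1, Txnrd1 itself, which fell by 2.32 (-2.32 ± 0.49, SE, adjusted p = 0.021). The list's median difference from control was -0.07 in shSep15 cells, 0.05 in shTR1 cells and 0.12 in shTR1/shSep15 cells. Over all probe sets the medians were -0.03, -0.04 and -0.01, and over those with a mean of 6 or more 0.10, 0.14 and 0.10. With control replicate 2 left out, the list's medians were -0.06, -0.13 and 0.001, so that the one in shTR1 cells changed sign, and 3 of the 16 were called in shTR1/shSep15 against shSep15 cells (Txnrd1, Nxn and Txndc5). Txnrd2, the mitochondrial reductase, had means of 7.46 ± 0.22, 7.45 ± 0.29 and 7.37 ± 0.04 in shSep15, shTR1 and shTR1/shSep15 cells, against 7.04 ± 0.21 in control cells (SD, n = 4 each), with adjusted p of 0.20, 0.29 and 0.59. Srxn1, the sulfiredoxin that restores overoxidised peroxiredoxins, differed from shSep15 cells by 0.72 ± 0.32 in shTR1/shSep15 cells (SE, adjusted p = 0.34). Ero1a, the oxidase that makes hydrogen peroxide in the endoplasmic reticulum, gave -1.15 ± 0.37 in shSep15 cells against control (SE, adjusted p = 0.15), a sign opposite to that of Prdx4. Nxn (nucleoredoxin) fell by 0.73 in shSep15 cells only in the fit without control replicate 2 (adjusted p = 0.025, and 0.56 on all arrays).

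Of 12 glutathione-side partners, the partners of Glrx, limma called 0 in any comparison on 16 arrays. All 12 had a positive difference between shTR1/shSep15 and control cells (47.9% of all probe sets, median of the list 0.20) and 11 a positive one between shTR1/shSep15 and shTR1 cells (57.6%, median 0.31). Against shSep15 cells 9 were positive (54.1%, median 0.40), 7 of them at an unadjusted p under 0.05, a level passed in that direction by 5.6% of all probe sets. Over probe sets with a mean of 6 or more, 61.5% were higher against control, 44.7% against shTR1 and 48.6% against shSep15 cells. Their medians were 0.10, -0.05 and -0.01. These comparisons share the shTR1/shSep15 arrays, so that the counts are not independent of each other. With control replicate 2 left out, the count against control was 11 of 12 with a median of 0.25. In that fit 47.3% of all probe sets were higher, and 57.7% of those with a mean of 6 or more.

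Gsr, the glutathione reductase, had signals of 8.95, 9.39, 9.04 and 9.08 in shTR1/shSep15 cells, against 7.77, 7.88, 7.23 and 7.80 in shSep15 cells. These groups did not overlap, and the difference was 1.45 ± 0.53 (SE, adjusted p = 0.21). It was called without control replicate 2 (adjusted p = 0.039), as was Gstp1, a glutathione transferase, at 0.80 (adjusted p = 0.043, and 0.086 on all arrays). Abcc1, the transporter that exports glutathione conjugates, had a mean of 9.38 ± 0.09 in shTR1/shSep15 cells, against 8.81 ± 0.39 in control cells (SD, n = 4 each, adjusted p = 0.50). Gclm, a subunit of the enzyme that starts glutathione synthesis, went the other way against shSep15 cells, where its mean was the highest of the lines (10.64 ± 0.33, against 9.72 ± 0.87 in control cells, SD, adjusted p = 0.28). Without control replicate 2 its difference between shSep15 and control cells was 0.53 (adjusted p = 0.49) in place of 0.92.

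**Figure D4:**
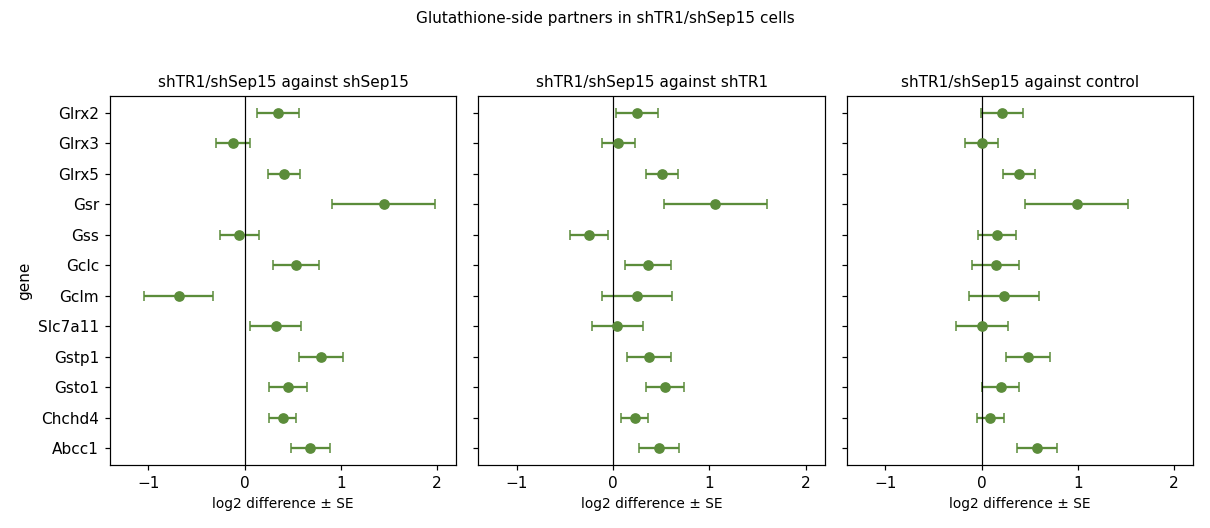
Log2 difference with its SE (horizontal axis) of 12 glutathione-side partners in shTR1/shSep15 cells against shSep15, shTR1 and control cells. Differences are positive in 9, 11 and 12 of the 12 genes, and Gsr has the largest in each panel on all arrays. Without control replicate 2 its difference from control is 0.38 in place of 0.99, and Abcc1 has the largest there, at 0.70.

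Of 16 other enzymes of peroxide and superoxide, 1 was called. Gpx8, a glutathione peroxidase family member of the endoplasmic reticulum like Prdx4, had signals of 10.63, 9.93, 10.76 and 10.57 in shSep15 cells, against 9.80, 8.96, 9.47 and 9.59 in control cells. It rose by 1.02 ± 0.24 (SE, adjusted p = 0.040), and its groups did not overlap. Its non-additivity was -1.60 ± 0.34 (SE, adjusted p = 0.021), with a mean of 9.62 in shTR1/shSep15 cells and 10.21 in shTR1 cells. Without control replicate 2 the first was no longer called (0.85, adjusted p = 0.079), while non-additivity was (-1.43, adjusted p = 0.020). Gpx1, the cytosolic glutathione peroxidase and a selenoprotein, had a non-additivity of -0.80 ± 0.21 (SE, adjusted p = 0.062), and passed the threshold without control replicate 2 (adjusted p = 0.021).

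Nfe2l2 encodes Nrf2, known to induce Prdx1, Srxn1, Gclm and Txnrd1, whose promoters hold the core shown above. Of 12 regulators on its list limma called 0 in each comparison. Nfe2l2 had means of 9.82 ± 0.13 in shTR1/shSep15 cells, 9.79 ± 0.36 in shTR1 cells and 9.44 ± 0.24 in shSep15 cells, against 9.70 ± 0.36 in control cells (SD, n = 4 each). The median difference of the list from control was -0.23 in shTR1/shSep15 cells, -0.22 in shSep15 cells and 0.07 in shTR1 cells, and without control replicate 2 it was 0.02, -0.01 and 0.28. Over probe sets with a mean of 6 or more the medians were 0.10, 0.10 and 0.14, and without that array 0.05, 0.06 and 0.09. The mean of the list was 8.71 on control replicate 2, against 7.17 to 7.64 on the other control arrays.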

How the data were processed

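Total RNA was extracted with TRIzol from 4 samples of each line and hybridised as biotin-labelled cRNA. The authors processed the arrays with Robust Multi-Array Analysis (RMA, version not given in the sources used here) and deposited log2 signals per probe set, which were used unchanged. The 64 Affymetrix control probe sets were not tested. Of 45037 probe sets, 34945 carry 1 symbol, 932 several and 9160 none in the platform annotation. A gene was represented by its brightest single-symbol probe set.

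Lines came from the labels. A group-means model over all 16 arrays was fitted in limma 3.58.1 (R 4.3.3), with Benjamini-Hochberg adjustment over all probe sets and a threshold of 0.05. The code was tested on simulated data. The methods' ANOVA, other scalings and filters, a replicate block, array weights and each array left out were alternatives. Depth does not apply, and 4 arrays a line limit the precision. Named genes were the members, both targets, genes of the fixed partner lists and the 3 genes most like the member with the smallest F p-value. Members and lists were chosen with earlier results of these data known.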

Additional observations from a re-analysis of the deposited data

Results flagged for a closer look

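Among 100 groups of 4 arrays (25 probe sets in 4 lines), 5 held an array far from the other 3 by Dixon's criterion, a rate that chance alone gives about 5 times in 100. For control replicate 2 this was so at the brighter Prdx2 probe set (9.645, against 11.08 to 11.21 on the other control arrays) and at the third Prdx4 probe set (5.203, against 6.34 to 6.52). For shTR1/shSep15 replicate 2 it was so at the third Sod1 probe set (4.873, against 5.68 to 5.78). For shTR1 replicate 1 it was so at the fourth Sod1 probe set (4.087, against 5.14 to 5.27) and at the dimmest probe set shared by Prdx1 and Gm21399 (10.297, against 9.43 to 9.55). At the third Sod1 probe set the non-additivity of the lines as labelled was -2.172 (limma adjusted p = 0.0465). This call was lost when most single arrays were left out, and the brightest Sod1 probe set gave 0.673 (limma adjusted p = 0.129).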

How the results depend on the processing

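Counts below are of the 20 member probe sets called, beside 0 in every comparison except non-additivity with 1. The shares of all probe sets called under each setting are not given here. The counts therefore show only how the calls move with the setting, and are no measure of the members as a group. The methods' ANOVA without adjustment gave 4 in shSep15, 6 in shTR1 and 2 in shTR1/shSep15 cells against control, 6 in shTR1/shSep15 against shSep15, 4 against shTR1, 8 for non-additivity and 5 for any difference, and with adjustment 0 for non-additivity. Array weights, chosen after seeing the data, gave 4 in shSep15 against control, 5 in shTR1/shSep15 against shSep15, 2 against shTR1, 6 for non-additivity and 6 for any difference. Fitting only the lines compared gave 4 in shTR1/shSep15 against shSep15. A further quantile normalization gave 0 for non-additivity and 1 for any difference. Leaving out 1 array at a time gave 0 to 1 in shTR1/shSep15 against shSep15, 0 to 3 for non-additivity and 0 to 1 for any difference, with 2 for non-additivity (Prdx2 and Sod1) without control replicate 2 and 3 without shTR1 replicate 1. Without shTR1 replicates 2 and 4 together, also chosen after seeing the data, the count for non-additivity was 0. With control replicate 2 left out beside them, 5 of 42 member differences changed sign, the largest of these being a log2 difference of 0.48 on all arrays (Prdx4, shTR1 against control).

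Sod1 turned round when its 5 probe sets were averaged, to -0.0489 in shTR1/shSep15 against shSep15 and -0.0839 against shTR1, beside 0.47 and 0.43 at the brightest. Of the 5, only the third was negative in these comparisons, at -1.23 and -1.30. Why it differs from the others was not tested. Shared replicate numbers did not pair the arrays, as same-numbered arrays of different lines correlated in their deviations at a median of -0.05 (-0.55 to 0.43 over 24 pairs) and 3 of 16 arrays correlated best with their own number. With the replicate block 0 were called for non-additivity (the third Sod1 probe set, adjusted p = 0.072), and no other count changed.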
